A study of Mus musculus with 6 samples.

Results

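SOX proteins are transcription factors that share a DNA-binding HMG box and are sorted into groups by its sequence. The genes described here are 10 mouse SOX genes of the neural crest and skin, picked by name among the 36528 gene models of the files: Sox8, Sox9 and Sox10 of group E, Sox5, Sox6 and Sox13 of group D, Sox4, Sox11 and Sox12 of group C, and Sox2 of group B1. Each of the 10 matched 1 row of the files. Polyadenylated RNA had been sequenced from primary mouse melanocytes, the pigment cells, taken from skin. By their labels, 3 libraries are from a knockout of Bap1, a deubiquitinase acting on histones (BAP1 KO), and 3 are wild type (WT). The labels give no strain, age, culture time or method of deletion, and nothing in them states that replicates are separate cultures or animals. The p-values below therefore reflect the spread among these libraries, which may be technical.

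In the melanocyte lineage SOX10 is the central member of the family. Together with PAX3 it switches on Mitf, the master regulator of pigment cells, and it also binds the promoters of pigment enzymes such as Dct. SOX9 is closely related to it and works in cartilage, in hair follicle stem cells and in some pigment cells, while the group D proteins have no activation domain of their own and modulate group E proteins at shared sites. The group C proteins SOX4 and SOX11 act in progenitor cells, and SOX2 is known for pluripotent and neural stem cells, Merkel cells and the dermal papilla of the hair follicle.

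Library totals were 33987690 to 43773769 reads. Bap1 itself was read at 74.4 ± 2.52 CPM in the BAP1 KO-labelled libraries and at 55.7 ± 0.0972 CPM in those labelled WT (counts scaled to library size, SD, n = 3 each). The targeted gene was thus higher under the knockout label, by a log2 difference of 0.42 (SE 0.042, edgeR adjusted p = 3.89e-06). Counts pool all exons and need not fall when some exons are deleted. Since the targeted gene did not mark the knockout libraries, each direction below rests on the labels alone. All 10 melanocyte markers were read in every group and were higher under the BAP1 KO label, with a summed level of 62364 to 63225 CPM against 6413 to 6495 CPM. Of 10 keratinocyte markers, 9 were tested and lower, and all 10 summed to 321 to 344 CPM against 7045 to 7099 CPM. All 9 fibroblast markers were lower (20.3 to 21.7 CPM against 453 to 475 CPM). No marker of these 3 lists was without reads. Over all genes tested, 39.4% were called higher and 42.1% lower at an edgeR adjusted p under 0.05. In bulk RNA, fewer cells of a type and less RNA per cell cannot be told apart, and the part of these other cells in the results below was not tested.

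The SOX genes went in opposite directions within groups E and C, while in group D the genes that passed the test were both higher under the BAP1 KO label. Sox10, Sox6 and Sox2 were higher and Sox9, Sox4 and Sox11 lower by more than 2-fold in the libraries labelled BAP1 KO, Sox5 and Sox12 were slightly higher, Sox13 did not pass the test, and Sox8 was barely read. Of the 10 genes, 9 passed the count filter. Sox2 passed it only through the libraries labelled BAP1 KO, so its direction was partly built into the filter. The other 8 passed it in both groups. By edgeR's quasi-likelihood test with Benjamini-Hochberg adjustment over 17121 genes, 5 were higher and 3 lower at an adjusted p under 0.05. Over all genes tested 81.5% were called, 39.4% as higher and 42.1% as lower, so the count of members called says little about SOX genes as such. More than 2-fold differences were called for 36.6% of all genes tested, and for 6 of the 9 members tested. The values of 8 of the 9 did not overlap between the labels, as was so for 82.7% of all genes tested.

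**Figure D1:**
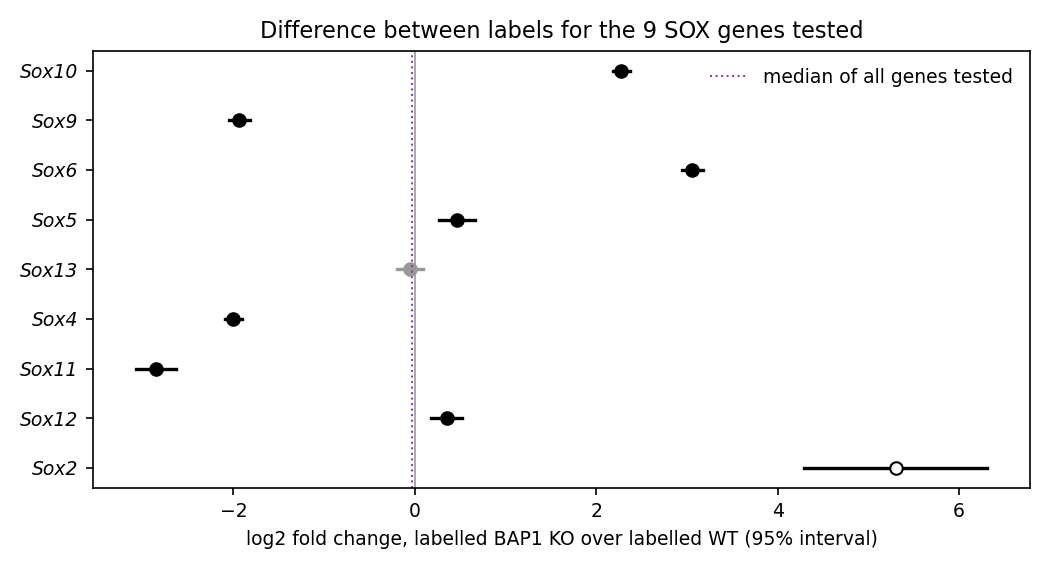
Log2 fold change of the libraries labelled BAP1 KO over those labelled WT for the 9 SOX genes tested, with 95% intervals as bars; black points passed an adjusted p of 0.05, the grey point did not, and the open point is Sox2, which passed the filter through 1 group. Sox10, Sox6 and Sox2 lie above 2, while Sox4, Sox9 and Sox11 lie between -1.93 and -2.85.

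Sox10 was the most abundant SOX transcript of the libraries labelled BAP1 KO. Sox10 (gene ID 20665, chromosome 15, 79154913 to 79164490 on GRCm38, minus strand, 5 merged exons) was read at 953, 992 and 935 CPM in the BAP1 KO-labelled libraries and at 193, 195 and 207 CPM in those labelled WT. The groups did not overlap. The log2 difference was 2.28 (SE 0.042, edgeR adjusted p = 3.04e-12), 4.84-fold. On the length-scaled scale of the deposited RPKM, Sox10 stood at 326 ± 9.85 in the BAP1 KO-labelled libraries, where it ranked 66 to 73 among all gene models, and at 66.0 ± 3.32 in those labelled WT, where it ranked 734 to 786 (SD, n = 3 each). In the same libraries the melanocyte markers had a median log2 difference of 3.06, larger than that of Sox10.

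Sox9, its relative in group E, moved the other way. Sox9 (gene ID 20682, chromosome 11, 112782210 to 112787757, plus strand, 3 merged exons) stood at 45.2, 43.3 and 41.6 CPM in the BAP1 KO-labelled libraries and at 157, 166 and 174 CPM in those labelled WT. Every library labelled BAP1 KO lay below every one labelled WT, and Sox9 fell by 1.93 in log2 units (SE 0.052, edgeR adjusted p = 5.95e-11), 3.82-fold. Markers of other skin cells that use SOX9 were lower for keratinocytes and mixed for hair follicle epithelium. Of 7 hair follicle epithelium markers tested, 5 fell and 2, Nfatc1 and Tcf7l1, rose. Over all genes tested, 42.1% were called lower and 39.4% higher. Lgr5 and Cd34 passed the count filter only through the libraries labelled WT, so their fall was partly built into the filter. Of the 5 that passed it in both groups, 3 fell and 2 rose. The median of the 7 was -2.95. The summed level of all 8 listed markers, among them Shh, which was not tested, was 110 to 121 CPM against 1310 to 1432 CPM. Of this, Krt17 alone averaged 64.0 against 1311 CPM. The keratinocyte markers had a median of -4.23. Sox9 thus differed less than the median of the keratinocyte markers. The 5 hair follicle markers that passed the filter in both groups ranged from -4.36 to 0.66, on both sides of Sox9. The part of these cells in the level of Sox9 was not tested.

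The ratio of Sox10 to Sox9, both per length, does not depend on the scaling between libraries. It was 31.5, 34.2 and 33.5 in the BAP1 KO-labelled libraries and 1.84, 1.75 and 1.78 in those labelled WT. The ratio was 33.1 ± 1.4 against 1.79 ± 0.0463 (SD, n = 3 each), a difference of 4.21 on the log2 scale. An exact two-sided permutation test over the 6 libraries gave p = 0.1, the smallest that 3 against 3 can give.

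Sox8, the remaining member of group E, was close to absent at this depth. Sox8 (gene ID 20681, chromosome 17, 25565893 to 25570686) had 3, 2 and 5 reads in the BAP1 KO-labelled libraries and 4, 3 and 1 in those labelled WT, and it did not pass the count filter. The ratio of its summed reads, corrected for depth, was 1.23 with an exact 95% interval of 0.437 to 3.58, which covers counting error only. A difference in Sox8 was therefore not detectable here.

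**Figure D2:**
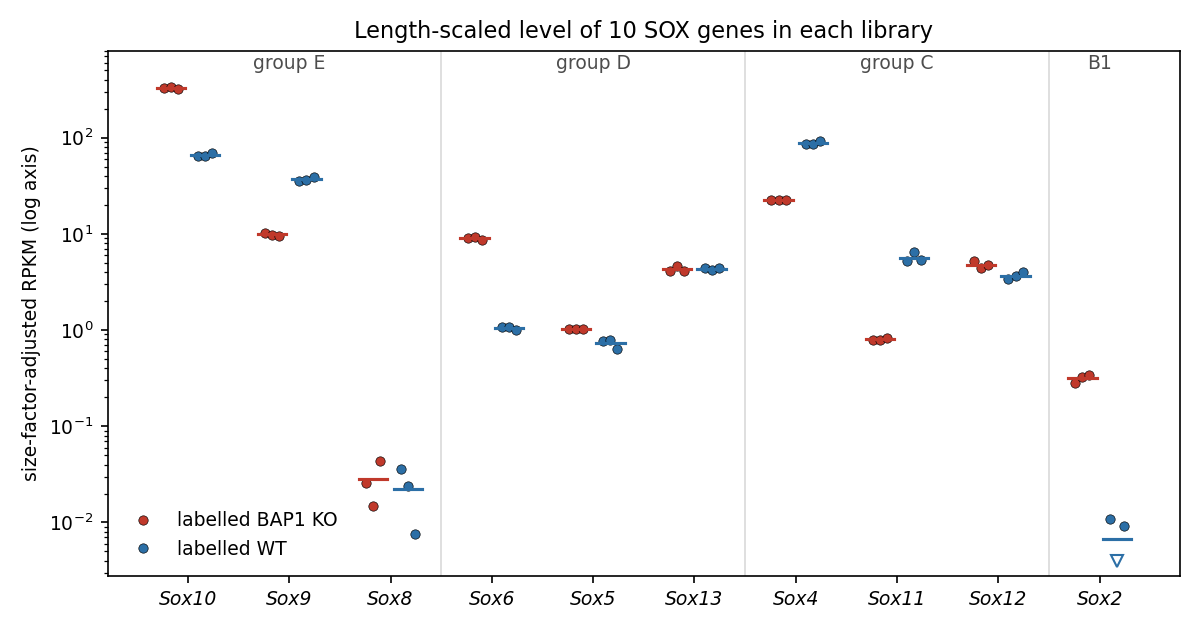
Deposited size-factor-adjusted RPKM of the 10 SOX genes on a log axis; each point is 1 library, each horizontal line the mean of 3, red for the BAP1 KO label and blue for the WT label, and the open triangle marks a value of 0. Sox10 is highest under the BAP1 KO label and Sox4 under the WT label, and the points of Sox13 and Sox8 overlap between labels.

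Sox6 had the largest difference among the members read well in both groups. SOX6 is known to bind beside group E proteins and, in melanocytes, its close relative SOX5 is known to restrain SOX10. Sox6 (gene ID 20679, chromosome 7, 115470872 to 116040776, minus strand, 25 merged exons) was read at 161, 165 and 155 CPM in the BAP1 KO-labelled libraries and at 19.5, 20.1 and 18.1 CPM in those labelled WT. The groups lay far apart, and the log2 difference was 3.06 (SE 0.053, edgeR adjusted p = 1.99e-12), 8.34-fold. Sox5 (gene ID 20678, chromosome 6, 143828425 to 144782287) stood at 11.4, 11.6 and 11.7 CPM in the BAP1 KO-labelled libraries and at 8.68, 9.14 and 7.22 CPM in those labelled WT. Its groups did not overlap either, but the difference was only 0.47 (SE 0.089, edgeR adjusted p = 5.68e-04), and it was not past the test against a 2-fold difference. The antisense gene Sox5os1 overlaps 9.25% of the Sox5 exons, and the library kit does not mark strand. The ratio of Sox6 to Sox5 per length was 8.72 ± 0.333 under the BAP1 KO label and 1.45 ± 0.103 under the WT label.

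Sox13, the third member of group D, differed by less than its spread between libraries. It stood at 19.3, 22.3 and 19.7 CPM in the BAP1 KO-labelled libraries and at 21.4, 20.8 and 21.3 CPM in those labelled WT, and the groups overlapped. The log2 difference was -0.05, with a 95% interval of -0.19 to 0.10 (edgeR adjusted p = 0.501). The interval covers the spread among these libraries at a fixed scaling only.

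The group C genes Sox4 and Sox11 were lower under the BAP1 KO label. Sox4 (gene ID 20677, chromosome 13, 28948919 to 28953699, minus strand, 1 exon) was read at 71.0, 71.2 and 71.4 CPM in the BAP1 KO-labelled libraries and at 276, 283 and 295 CPM in those labelled WT. The libraries labelled BAP1 KO agreed within counting error (a coefficient of variation of 0.262%, where counting alone gives 1.91%), and the groups were well apart. Sox4 fell by 2.0 in log2 units (SE 0.040, edgeR adjusted p = 6.21e-12), 4.0-fold. The value is uncertain to the extent that 54.6% of its exon is overlapped on the other strand by the noncoding gene Gm26735, whose reads cannot be told apart without strand. Sox11 (gene ID 20666, chromosome 12, 27334268 to 27342718, minus strand, 1 exon) stood at 7.09, 7.06 and 7.36 CPM in the BAP1 KO-labelled libraries and at 47.4, 60.1 and 47.9 CPM in those labelled WT. Replicate 2 labelled WT was the highest, and all 3 lay far above the other group. Sox11 fell by 2.85 (SE 0.10, edgeR adjusted p = 5.11e-10), 7.23-fold.

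Sox12, the third gene of group C, went slightly the other way. It stood at 24.2, 21.0 and 22.1 CPM in the BAP1 KO-labelled libraries and at 16.1, 17.6 and 18.9 CPM in those labelled WT, without overlap. The log2 difference was 0.35 (SE 0.076, edgeR adjusted p = 0.00143), and, as for Sox5, it was not past the test against a 2-fold difference. Per length, the ratio of Sox4 to Sox12 was 4.76 ± 0.345 under the BAP1 KO label and 24.3 ± 1.19 under the WT label (SD, n = 3 each).

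The sequences before the transcript start are shown for Sox4, Sox11 and Sox6, the members with a promoter entry that differed most while being read well in both groups. Entries were found for 8 of the 10 members in the RefSeq promoter table of GRCm38.p6, which gave none for Sox9 and Sox10. Each run is the 250 bases before the start, 5′ to 3′ on the gene's strand. For Sox6, which has 6 starts in the table, it is the most upstream window with at most 30 bases of annotated exon. Capitals mark matches on either strand to CACGTG or CATGTG (E-boxes of the kind MITF binds), AACAAT or ACAAAG (SOX-type letters), TATAAA, or CCAAT, the last added after the sequences had been seen. Sox4 is at chr13:28953700-28953949, Sox11 at chr12:27342719-27342968 and Sox6 at chr7:116031048-116031297, all on the minus strand.
Sox4: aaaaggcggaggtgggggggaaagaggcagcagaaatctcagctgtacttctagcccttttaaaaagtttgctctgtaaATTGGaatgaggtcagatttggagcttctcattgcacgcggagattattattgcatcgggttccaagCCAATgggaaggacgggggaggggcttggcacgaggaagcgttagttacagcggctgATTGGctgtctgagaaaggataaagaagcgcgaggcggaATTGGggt
Sox11: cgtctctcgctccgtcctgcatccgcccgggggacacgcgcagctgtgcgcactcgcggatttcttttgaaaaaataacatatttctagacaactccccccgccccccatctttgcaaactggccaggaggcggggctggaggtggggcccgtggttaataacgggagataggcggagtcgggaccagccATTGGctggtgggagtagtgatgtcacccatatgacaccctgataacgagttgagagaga
Sox6: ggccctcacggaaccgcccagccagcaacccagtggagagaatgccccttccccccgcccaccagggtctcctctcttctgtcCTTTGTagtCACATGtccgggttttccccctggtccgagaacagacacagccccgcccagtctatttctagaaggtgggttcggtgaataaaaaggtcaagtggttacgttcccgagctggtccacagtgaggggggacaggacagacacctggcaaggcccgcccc

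The Sox4 window held 4 matches to CCAAT and the Sox11 window 1, at position -60 from the start, and neither held a match to the other motifs. The Sox6 window shown held 1 match each to CATGTG and ACAAAG, at positions -158 and -167. Other Sox6 windows held other matches, some of them none to CATGTG, and which start is used in these cells was not tested. Over 32851 windows of the same length in the table, 33.8% held CCAAT, 12.3% CATGTG, 16.5% ACAAAG, 9.42% AACAAT, 6.02% CACGTG and 12.4% TATAAA. GC content was 50.8% for Sox4, 58% for Sox11 and 60.8% for Sox6, with 11, 17 and 10 CG pairs, against medians of 52.4% and 6 over all windows. These matches describe the letters only.

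Sox2 was found almost only under the BAP1 KO label, at a low level. Sox2 (gene ID 20674, chromosome 3, 34649995 to 34652461, plus strand, 1 exon) had 27, 36 and 32 reads in the BAP1 KO-labelled libraries and 1, 0 and 1 in those labelled WT. The 0 reads of replicate 2 labelled WT allow up to 3 reads, or 0.0797 CPM, counting error only. The depth-corrected ratio of summed reads was 46.7, with an exact 95% interval of 12.6 to 391. In RPKM it reached 0.315 ± 0.0315 under the BAP1 KO label (SD, n = 3), against 326 for Sox10 in the same libraries. Among markers of cells that use Sox2, Krt8 and Krt18 of the Merkel cell list were lower under the BAP1 KO label. Krt20 was lower too, but it passed the count filter only through the libraries labelled WT, so its direction was partly built into the filter. Atoh1 and Isl1 stayed under 1 CPM in every library. Of 4 dermal papilla markers tested, 3 were lower and 1, Alx4, higher, where 42.1% of all genes tested were lower and 39.4% higher. The part of these cells in the level of Sox2 was not tested.

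The order of the levels per length differed between the labels. In the libraries labelled BAP1 KO it was Sox10, Sox4, Sox9, Sox6, Sox12, Sox13, Sox5, Sox11, Sox2 and Sox8, and only the neighbours Sox12 (4.77 ± 0.359 RPKM) and Sox13 (4.29 ± 0.335 RPKM) overlapped. In those labelled WT it was Sox4, Sox10, Sox9, Sox11, Sox13, Sox12, Sox6, Sox5, Sox8 and Sox2, and only Sox8 and Sox2, both near 0, overlapped. Sox4 led under the WT label with 88.6 ± 3.91 RPKM and stood at 22.6 ± 0.0343 RPKM under the BAP1 KO label. The lengths behind the deposited RPKM differ from the merged exon lengths of GENCODE M21, 4795 bases for Sox4 and 3051 for Sox10. Places of genes close in level, such as Sox4 and Sox10 under the WT label, depend on the lengths used. Reads of Gm26735, which overlaps 54.6% of the Sox4 exon, may also be counted in the level of Sox4. Sox9 was in the third place in both, at 9.87 ± 0.433 and 36.9 ± 2.14 RPKM.

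Summed per length over the 20 SOX genes of the files, the SOX transcripts came to 380.0 ± 10.4 RPKM in the BAP1 KO-labelled libraries and 212 ± 9.68 RPKM in those labelled WT. Sox10 made up 85.9% ± 0.283 of that sum under the BAP1 KO label and 31.2% ± 0.377 under the WT label. Sox4 made up 5.96% ± 0.171 and 41.8% ± 0.128, and Sox9 2.60% ± 0.105 and 17.4% ± 0.292. The share of Sox6 was 2.36% ± 0.0208 against 0.498% ± 0.0418. Shares of 1 sum depend on each other, so a larger share of Sox10 makes those of the others smaller. Like the order, they depend on the lengths behind the deposited RPKM, and that of Sox4 also on the overlap with Gm26735.

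**Figure D3:**
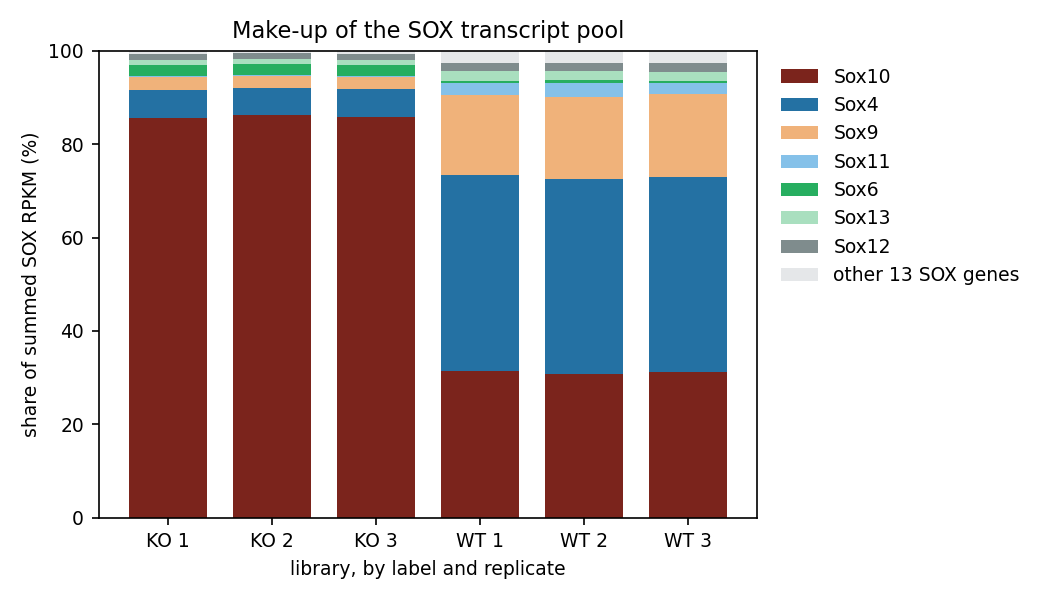
Share of each SOX gene, in percent, in the summed deposited RPKM of 20 SOX genes, 1 bar for each library by label and replicate. Sox10 fills 85.9% of the bars labelled BAP1 KO on average, and Sox4, Sox10 and Sox9 together most of the bars labelled WT.

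The other 10 SOX genes were low in all libraries. Of these, 4 passed the count filter and all 4 were called lower under the BAP1 KO label, where 42.1% of all genes tested were lower. Sox7 and Sox30 passed the filter only through the libraries labelled WT, so that, as for Sox2, their direction was partly built into the filter. Sox15 and Sox21 passed it in both groups. Sox7, a vascular factor, fell from 3.13 ± 0.260 to 0.203 ± 0.0987 CPM (edgeR adjusted p = 5.66e-08), Sox21 from 6.35 ± 0.644 to 1.46 ± 0.259 CPM and Sox15 from 2.78 ± 0.494 to 0.483 ± 0.211 CPM (SD, n = 3 each). These 3 did not overlap between groups, whereas Sox30, at -0.88 (SE 0.35, edgeR adjusted p = 0.0374), did. The call of Sox30 was lost in 8 of 16 alternative settings, among them DESeq2 (adjusted p = 0.102), limma-voom (adjusted p = 0.0608) and those without replicate 2 or 3 labelled BAP1 KO (edgeR adjusted p = 0.152 and 0.0820) or replicate 1 or 3 labelled WT (edgeR adjusted p = 0.126 and 0.101). Sox17 and Sox18, the other vascular members, had 1 and 3 reads over the BAP1 KO-labelled libraries and 5 and 2 over those labelled WT, and Sox14 and Sry had none.

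Genes known as SOX10 targets in pigment cells were mostly higher, but those not also among the melanocyte markers were split. The list has 8 genes, of which 6 were higher and 2 lower, where 39.4% of all genes tested were higher and 42.1% lower. It shares 4 genes, Mitf, Dct, Tyr and Tyrp1, with the melanocyte markers, all higher as given above, so those 4 are not separate evidence. Its median was 1.63 on the log2 scale, against -0.03 over all genes tested. Tyrp1 and Tyr, enzymes of melanin synthesis, were 11.7-fold and 9.37-fold higher, and Dct rose from 1707 ± 29.1 to 16083 ± 114 CPM (SD, n = 3 each). Of the genes not shared, named after their values were seen, Ednrb (0.93) and Erbb3 (0.67) were higher on the log2 scale. Nes (-0.84) and Mia (-2.44) were the 2 lower ones. Mia passed the count filter only through the libraries labelled WT, so its direction was partly built into the filter, and Nes passed it in both groups. SOX10 targets of glia were split, with 5 of 11 higher and 5 lower (median 0.29). Of the 11, 10 passed the count filter in both groups, 5 of them higher and 4 lower. S100b, which encodes an EF-hand calcium sensor found in glia and melanocytes alike, rose from 3.07 ± 0.253 to 145 ± 8.72 CPM, while the receptor gene Ret fell by 2.27 (SE 0.085) in log2 units and the POU factor Pou3f1 fell by 2.11 (SE 0.18).

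SOX9 targets of cartilage were mostly low, with 7 of 12 under 1 CPM in every library. Of the 5 that passed the count filter, all in both groups, 3 were lower and 1 higher (median -0.49). Over all genes tested, 42.1% were lower and 39.4% higher. Col2a1, the collagen that SOX9 switches on in cartilage, fell from 2.74 ± 0.108 to 0.692 ± 0.156 CPM and Col11a1 from 83.0 ± 3.13 to 59.1 ± 1.46 CPM, while Col9a3 fell 1.77-fold. Among 3 targets of SOX4 and SOX11 tested, Tead2, a partner of the Hippo pathway, fell from 64.2 ± 5.05 to 14.5 ± 0.521 CPM and Tubb3, a neuronal tubulin, 1.77-fold. Ezh2, the Polycomb methyltransferase, was 1.67-fold higher.

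Among 14 partners and modifiers of SOX proteins tested, 6 were higher and 4 lower, while 4 were not called (median 0.11). Over all genes tested, 39.4% were higher and 42.1% lower, so these counts say little about the partners as such. Pax3, which acts with SOX10 at the Mitf promoter, rose from 57.3 ± 1.65 to 464 ± 4.04 CPM (SD, n = 3 each; edgeR adjusted p = 3.16e-13), 8.11-fold and thus more than Sox10. Crebbp, a histone acetyltransferase, was 1.88-fold higher. Lef1, the Wnt pathway factor, fell by 1.96 (SE 0.23) from 2.02 ± 0.510 CPM.

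**Figure D4:**
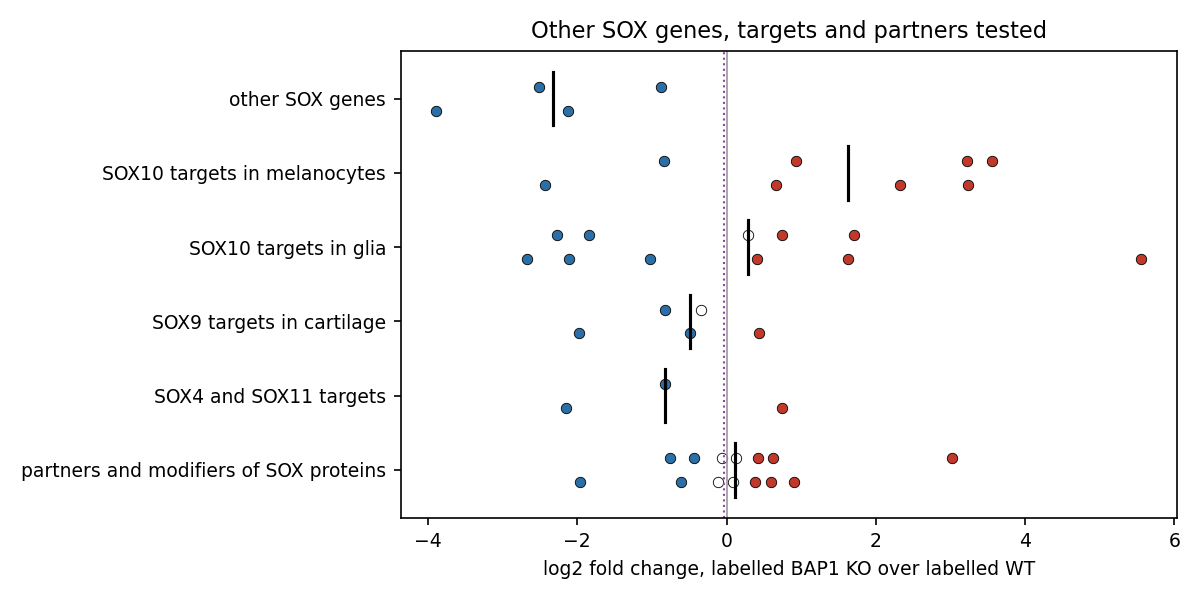
Log2 fold change, labelled BAP1 KO over labelled WT, of each tested gene of 6 lists (1 point a gene; red higher and blue lower at an adjusted p under 0.05, white not past it; black bars are list medians and the dotted line is the median of all genes tested). All 4 other SOX genes lie below 0, and the glial targets and partners lie on both sides.

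Likeness to Sox10 and Sox9 across libraries was close for very many genes. By Pearson's r of log2 levels over the 6 libraries, Stat5a and Sorbs3 were among the genes most like Sox10, and Ezr, Cacna1g and Hes1 most like Sox9. Of 12002 genes compared, 2164 had an r above 0.99 with Sox10 and 2367 with Sox9. The 6 libraries form 2 groups, so r chiefly describes which genes part the groups in the same direction with little spread.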

How the data were processed

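PolyA RNA of 6 libraries was prepared with a TruSeq v2 kit, which does not mark strand, and read as single-end 50-base reads, per the labels' protocols. GSNAP and GRCm38 are named in the submitters' processing notes; neither the counting tool nor the annotation is named in the sources used here. The deposited files give, per the file headers, a count of uniquely aligned reads per gene model and an RPKM adjusted by a size factor. Counts were used for all tests. RPKM, which scales for length, was used to compare levels between genes.

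Gene IDs were matched to symbols through the RefSeq gene table of GRCm38.p6 (31049 of 36528 IDs, 85.0%) and 78 more through GENCODE M21; IDs without a symbol held 1.05% of reads and were kept. Genes were filtered with filterByExpr (minimum count 10, which is 0.266 CPM at the median library total, minimum total 15), normalised with TMM, whose factors ran from 0.975 to 1.03, and compared with edgeR 4.0.16 in R 4.3.3 (glmQLFit, glmQLFTest, no covariate, Benjamini-Hochberg over all genes). CPM used the same factors. Each standard error was obtained by dividing the size of the log2 fold change by the root of the F statistic. Tests were tried on simulated data with differences planted in a small part of the genes. In the real data 81.5% of genes tested were called, so the trial does not cover scaling or false calls under so wide a difference. No file repeats another: chi-square over its degrees of freedom was 2.01 to 17.4 for pairs within a group, above sampling noise.

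The members, lists and the rule for named genes were chosen with earlier results of these data known. The rule names the members, Bap1, up to 3 called genes per list by size of change among those with at least 2 CPM in 1 group, and the 3 genes most like Sox9 and Sox10 (at least 2 CPM on average, 0.1 CPM added before logs); 1 gene it names is not reported here. Marker lists cover melanocytes, Schwann cells and glia, keratinocytes, hair follicle epithelium, dermal papilla, fibroblasts, Merkel cells, endothelium and macrophages. Of the markers, Lgr5, Cd34, Lum, Krt20 and Pecam1 passed the filter only through the libraries labelled WT. Exon overlap and shared 50-base sequences come from GENCODE M21.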

Additional observations from a re-analysis of the deposited data

How the results depend on the processing

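Scaling by DESeq2 size factors, library totals, upper-quartile factors or the authors' library factors, no count filter, a filter of 5 CPM in 3 libraries, DESeq2 1.42.0, limma-voom (limma 3.58.1), glmTreat with a null of a 2-fold difference, robust edgeR, a threshold of 0.01 on the adjusted p, and leaving out each library were tried. No member changed direction among those called. Over these settings Sox10 ranged from 2.20 to 2.34, Sox9 from -2.01 to -1.86, Sox6 from 2.98 to 3.10, Sox4 from -2.08 to -1.94 and Sox11 from -2.93 to -2.72. Sox2 ranged from 4.81 to 5.72 and dropped out of the 5 CPM filter. Sox13 ranged from -0.13 to about 0 and was never called. The log2 difference of the Sox10 to Sox9 ratio lay between 4.18 and 4.24.

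With glmTreat, Sox12 (0.35) and Sox5 (0.47) were no longer called, 3 members were higher, and 1818 genes were called higher and 3417 lower. Under it the melanocyte targets of SOX10 had 1 lower, its glial targets 3 higher, the SOX9 targets 0 higher and 1 lower, the SOX4 and SOX11 targets 0 higher and 1 lower, and the partners 1 higher and 1 lower. With the 5 CPM filter, which tests fewer genes, 1 other SOX gene, 1 melanocyte target and 2 glial targets were lower. Without a filter 5 SOX9 targets were lower. No paired analysis was possible because the labels give no replicate numbers: those used here follow the order of the deposited samples and pair nothing. The call of Sox30 was lost in 8 of 16 settings. Depth limits Sox8 and Sox2.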

Other observations

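Antisense and overlapping transcripts of SOX loci were read at a few reads a library. Sox6os, which starts inside the Sox6 locus on the other strand, had 10, 14 and 13 reads in the BAP1 KO-labelled libraries and 0, 3 and 2 in those labelled WT, in the direction of Sox6. Sox2ot, the noncoding gene that spans Sox2, had 7, 7 and 8 reads against 2, 0 and 0, in the direction of Sox2. Of the antisense transcripts at Sox5, Sox5os3 had 3, 5 and 0 reads against 2, 1 and 1, with overlap, and Sox5os4 had 1, 4 and 1 against 0, 0 and 1. None of them was tested, and the kit does not mark strand.

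Ratios within libraries, chosen after the values were seen, set SOX genes beside markers of the cells that use them. The ratio of Sox10 to Mitf per length was 8.26, 8.82 and 8.31 in the BAP1 KO-labelled libraries and 8.37, 7.81 and 10.3 in those labelled WT, so the groups overlapped although both genes differed about 5-fold (Mitf 5.01-fold, Sox10 4.84-fold). That of Sox6 to Mitf was 0.232 ± 0.00826 against 0.140 ± 0.00788 (SD, n = 3 each), without overlap. Both ratios hold for Mitf only, 1 of the 10 melanocyte markers, whose log2 difference of 2.32 was below their median of 3.06. Sox6 itself differed by 3.06 and Sox10 by 2.28, so ratios to other markers would differ from these. Sox9 stood at 0.192 ± 0.00671 of the level of Krt14, a basal keratinocyte keratin, under the BAP1 KO label and at 0.0354 ± 0.00155 under the WT label. Sox4 stood at 0.441 ± 0.0118 and 0.0849 ± 0.00248 of it.

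Of the other marker lists, 5 of 10 Schwann cell and glia markers were higher and 4 lower (median 0.37). For macrophages, 5 of 6 markers were higher and 1 lower (median 1.19). Over all genes tested, 39.4% were higher and 42.1% lower. Of 2 endothelial markers tested, Kdr was higher and Pecam1 lower. Pecam1 passed the count filter only through the libraries labelled WT, so its direction was partly built into the filter. Pecam1, Cdh5, Tek, Emcn and Tie1 stayed under 1 CPM in every library.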
